A study of Mus musculus with 10 samples.

Results

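The genes described here are 9 components and outputs of phosphoinositide 3-kinase (PI3K) signalling in B cells: the kinase subunit genes Pik3cd and Pik3r1, the inhibitor genes Pik3ip1 and Inpp5d, the kinase gene Akt1, the transcription factor genes Foxo1 and Foxo3, and Sesn1 and Txnip, which FOXO factors are known to induce. They were taken by name, with earlier results of these data known, and all 9 are among the 17204 genes tested on the arrays. For each gene the probe set that carries its symbol alone and has the highest mean over the 10 arrays was used, and its other probe sets were compared with it.

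PI3K makes the membrane lipid PIP3, which recruits and activates AKT. Active AKT phosphorylates the FOXO factors, which then leave the nucleus and no longer drive their targets, so that FOXO activity is set largely by phosphorylation and localization, which mRNA levels do not report. In germinal centre (GC) B cells FOXO1 is known for its part in the dark zone, the region where the cells divide.

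Each of 10 Affymetrix mouse expression arrays measured RNA of 1 sample of sorted splenic B cells. GC B1-8 (n = 3) and GC V23 (n = 3) cells came from mice of Balb/c background with an immunoglobulin heavy chain transgene (VH186.2-Tg in B1-8, V23-Tg in V23) and with the endogenous JH locus deleted, 14 days after intraperitoneal immunization with 50 µg of NP-CGG in alum, and were sorted as B220+ cells positive for λ light chain and for peanut agglutinin (PNA) binding. Naive B cells (n = 4) came from spleens of Balb/c mice that were not immunized. GC and naive cells differ at once in immunization, transgene, JH deletion and sort stain, whose effects cannot be told apart. In cells that bind NP through λ light chains, B1-8 is known to have a higher affinity for NP than V23. Nothing says that replicates are separate animals, so p-values measure the spread between these samples only, which may be technical.

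The values are log2 probe set signals, used as deposited, and array medians lay between 6.70 and 7.04. Differences were tested with limma in 1 model over all 10 arrays, two-sided, with Benjamini-Hochberg adjustment over all 17204 genes, and a gene is said to have risen or fallen where its adjusted p was under 0.05. Log2 fold changes are followed by ± their SE. The 6 B cell markers tested had mean log2 levels between 12.68 and 13.17 in GC samples and between 13.37 and 13.53 in naive samples, and 3 of the 6 fell (Pax5 at −1.32 ± 0.21, Blnk at −0.57 ± 0.07 and Cd79a at −0.40 ± 0.13). Of the GC B cell markers 5 of 6 rose, while Rgs13 was at 13.18 in B1-8, 13.10 in V23 and 13.19 in naive samples. Of the 5 naive follicular B cell markers tested 4 fell and 1 rose in the mean of both GC groups, and of 4 plasma cell markers 2 rose. Neutrophil markers moved with the groups, with all 7 tested higher in GC and mean levels of 11.68 to 12.35 in GC samples against 7.98 to 10.23 in naive samples. All 5 mitosis markers tested rose as well, with mean levels of 11.93 to 12.32 in GC samples against 8.73 to 10.003 in naive samples, and all 3 natural killer cell markers and 3 of 6 macrophage markers fell. The Actb 3′ minus 5′ signal difference, a measure of RNA integrity, was 0.98 ± 0.20 (SD) in B1-8 and 0.78 ± 0.08 in V23, against 1.46 ± 0.17 in naive samples. Within the naive group, replicates 2 and 4 had the highest mean level in 8 of the 10 marker lists measured, those of GC B cells, neutrophils, T cells, macrophages, natural killer cells, erythroid cells, plasma cells and mitosis. The part of these differences in the results below was not tested. In bulk samples fewer cells of a type and less RNA per cell cannot be told apart.

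Sequences are shown upstream of the 4 genes that fell by at least 2-fold in both lines, and of Akt1, which rose. These are the members whose mRNA moved most. For Sesn1 only the stretch around a motif is shown. Of the 2 Akt1 starts only the 1 whose window holds a motif is shown, so that sequence was picked by its motif. All 9 genes matched the RefSeq promoter table (GRCm38.p6), with 14 start sites between them, and each 300-base window from 250 bases before to 50 after a start was searched on both strands for the forkhead core GTAAACA, which reads TGTTTAC from the opposite strand, and for the E-box CACGTG. Among 32851 such windows, 3.65% hold the forkhead core and 7.15% the E-box. The forkhead core was found in 3 of the 14 windows, 1 each of Txnip, Sesn1 and Akt1, and the E-box in 0 of 14. In Txnip it begins 121 bases before the start, in Akt1 161 bases before 1 of its 2 starts, and in Sesn1 23 bases into the transcript. The Txnip window also holds 2 CACGAG boxes 5 bases apart, the form of the carbohydrate response element through which glucose-sensing MondoA and MLX are known to act on Txnip, and it is the 1 window of 32851 that holds such a pair on either strand. That pattern was searched after the sequence had been seen, and a match is a description of the letters, not of binding. The 250 bases before each start shown, and the Sesn1 match with 10 bases on each side, read as follows. They run from 5′ to 3′ on the strand of the gene, with matches in capitals.
Txnip (chr3:96557707-96557956, plus strand): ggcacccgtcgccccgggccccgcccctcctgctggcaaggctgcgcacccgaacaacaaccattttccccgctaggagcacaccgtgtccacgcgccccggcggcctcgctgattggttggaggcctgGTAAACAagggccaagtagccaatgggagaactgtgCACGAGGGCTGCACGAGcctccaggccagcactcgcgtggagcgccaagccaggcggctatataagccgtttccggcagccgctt
Pik3ip1 (chr11:3330481-3330730, plus strand): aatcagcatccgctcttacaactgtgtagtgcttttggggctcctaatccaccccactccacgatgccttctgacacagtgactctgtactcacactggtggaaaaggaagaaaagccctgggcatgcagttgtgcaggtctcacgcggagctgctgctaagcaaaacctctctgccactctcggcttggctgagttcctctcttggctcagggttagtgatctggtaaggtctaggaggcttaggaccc
Foxo3 (chr10:42276696-42276945, minus strand): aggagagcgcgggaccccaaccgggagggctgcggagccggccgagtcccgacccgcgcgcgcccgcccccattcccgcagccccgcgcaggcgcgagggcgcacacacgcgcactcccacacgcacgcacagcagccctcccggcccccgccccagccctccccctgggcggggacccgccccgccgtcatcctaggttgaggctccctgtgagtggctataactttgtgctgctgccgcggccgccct
Akt1 (chr12:112674885-112675134, minus strand): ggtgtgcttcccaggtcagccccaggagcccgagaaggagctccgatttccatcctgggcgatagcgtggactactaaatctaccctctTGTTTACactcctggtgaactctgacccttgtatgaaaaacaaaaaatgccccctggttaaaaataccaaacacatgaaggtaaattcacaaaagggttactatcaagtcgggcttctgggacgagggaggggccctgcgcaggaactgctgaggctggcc
Sesn1 match (chr10:41810586-41810612, plus strand): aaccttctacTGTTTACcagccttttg

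Against naive cells, 2 of the 9 genes rose (Pik3cd and Akt1) and 4 fell (Foxo3, Pik3ip1, Sesn1 and Txnip) in GC B1-8, and the same 6 moved the same way in GC V23. The background is high: 33.7% of all tested genes were called in GC B1-8 against naive and 37.9% in GC V23 against naive. Since the 9 genes were chosen with earlier results of these data known, such shares give scale only, and the contrast is no test. For the mean of both GC groups 2 rose and 5 fell, Pik3r1 being the fifth, where 41.5% of all genes were called. Of the 6 genes called in both lines 4 fell by at least 2-fold in both lines, and Akt1 rose by at least 2-fold in both. With each line taken alone, 6.9% of all genes fell by at least 2-fold in B1-8 and 8.99% in V23, and 6.15% rose so in B1-8 and 6.79% in V23. The shares that did so in both lines at once were not computed. The median log2 fold change of the 9 genes was −0.22 in B1-8 and −0.28 in V23, beside 0.05 and 0.06 over all genes. The comparisons share the 4 naive arrays. Without naive replicates 2 and 4, 2 members rose and 4 fell in each line. In that fit 18.3% of all genes rose and 16.4% fell for the mean of both GC groups, and the shares in each line were not computed. In 8 of the 9 genes the 6 GC arrays and the 4 naive arrays did not overlap, which was so for 35.5% of all tested genes. GC samples were all higher in 3 of the 9, against 17% of all genes, and all lower in 5, against 18.5%.

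**Figure D1:**
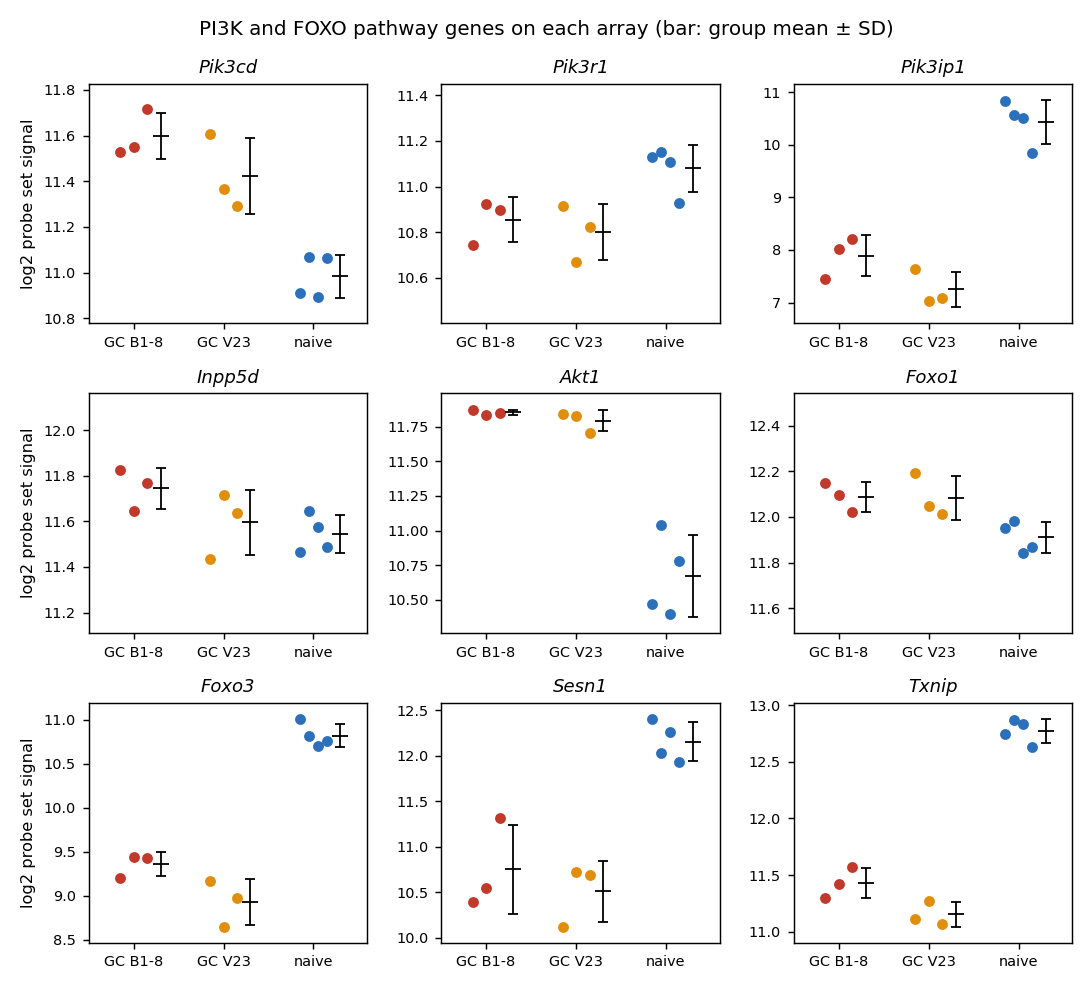
Log2 probe set signal (y axis) of the 9 genes on each array, with GC B1-8 (3 points), GC V23 (3 points) and naive (4 points) along the x axis and bars for the group mean ± SD; each panel has its own y range of at least 1 log2 unit. Foxo3, Pik3ip1, Sesn1 and Txnip lie lower in all 6 GC samples than in any naive sample, Akt1 and Pik3cd lie higher, and Inpp5d overlaps.

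Among the kinase genes, Pik3cd (1453281_at), which encodes the p110δ catalytic subunit that signals in lymphocytes, had values of 11.53, 11.55 and 11.72 in GC B1-8, 11.61, 11.37 and 11.29 in GC V23, and 10.91, 11.07, 10.89 and 11.06 in naive samples. Every GC sample lay above every naive sample, with the smaller gap for V23. It rose by 0.62 ± 0.11 in B1-8 (1.53-fold, limma adjusted p = 0.0024) and by 0.44 ± 0.11 in V23 (1.36-fold, adjusted p = 0.0117). The call rests on the choice of probe set, since averaging all 6 of its probe sets gave 0.21 in B1-8 (adjusted p = 0.255) and 0.24 in V23 (adjusted p = 0.182).

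Pik3r1 (1438682_at), whose p85α product stabilizes the catalytic subunit and holds it inactive until a receptor engages it, had values of 10.74, 10.92 and 10.90 in GC B1-8, 10.91, 10.67 and 10.82 in GC V23, and 11.13, 11.15, 11.11 and 10.93 in naive samples. The groups touch almost at naive replicate 4, with 10.93 against the highest GC value of 10.92. The difference was −0.22 ± 0.10 in B1-8 (adjusted p = 0.125) and −0.28 ± 0.10 in V23 (adjusted p = 0.0585). The mean of both GC groups passed at −0.25 ± 0.08 (adjusted p = 0.0424), and that call ended in 13 of 21 alternatives, among them 8 of the 10 in which a single array was left out (naive 1, 2 or 3, B1-8 1, 2 or 3, V23 2 or 3), with adjusted p between 0.0538 and 0.107.

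Akt1 (1416657_at), the kinase that PIP3 recruits to the membrane, was the member with the largest rise. Its values were 11.87, 11.83 and 11.85 in GC B1-8, 11.84, 11.83 and 11.71 in GC V23, and 10.47, 11.04, 10.40 and 10.78 in naive samples. The GC samples lay within 0.17 of each other, while the naive samples spread over 0.64. The rise was 1.18 ± 0.15 in B1-8 (2.26-fold, adjusted p = 0.000486) and 1.12 ± 0.15 in V23 (2.17-fold, adjusted p = 0.000512). Among naive samples, replicates 2 and 4 had the highest Akt1 values. The same 2 replicates also had the highest Pik3cd and the lowest Sesn1 values of the naive group, in each case the nearest to the GC values.

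Of the inhibitors, Pik3ip1 (1428332_at), a transmembrane protein that binds the catalytic subunit of PI3K and restrains it, fell more than any other of the 9 genes. Values were 7.45, 8.01 and 8.21 in GC B1-8, 7.64, 7.03 and 7.08 in GC V23, and 10.83, 10.56, 10.51 and 9.85 in naive samples. The highest GC value lay 1.64 below the lowest naive value, that of naive replicate 4. The log2 fold change was −2.54 ± 0.28 in B1-8 (5.84-fold lower, adjusted p = 0.000203) and −3.19 ± 0.28 in V23 (9.11-fold lower, adjusted p = 4.81e-05). For the mean of both GC groups Pik3ip1 ranked 285 among 17204 genes by absolute fold change.

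Inpp5d (1418110_a_at) encodes SHIP1, the lipid phosphatase that removes the 5-phosphate of PIP3 and acts below inhibitory receptors in B cells. It had 11.82, 11.65 and 11.77 in GC B1-8, 11.44, 11.71 and 11.64 in GC V23, and 11.46, 11.65, 11.58 and 11.49 in naive samples. The groups overlap, and V23 replicate 1 was the lowest of all 10. The difference from naive was 0.20 (95% interval −0.03 to 0.43, adjusted p = 0.16) in B1-8 and 0.05 (−0.18 to 0.28, adjusted p = 0.723) in V23. In V23 the sign turned with quantile normalization.

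Of the 2 FOXO factors Foxo3 fell, and Foxo1 did not pass the test on the probe set used. Foxo1 (1416983_s_at), the main FOXO factor of B cells, had 12.15, 12.10 and 12.02 in GC B1-8, 12.19, 12.05 and 12.01 in GC V23, and 11.95, 11.98, 11.84 and 11.87 in naive samples. The 6 GC samples lay above all naive samples by a gap of 0.03. The difference was 0.18 (95% interval −0.02 to 0.37, adjusted p = 0.152) in B1-8 and 0.17 (−0.02 to 0.37, adjusted p = 0.152) in V23, and 0.18 ± 0.07 for the mean of both (adjusted p = 0.0858; 0.0286 with an intensity trend and robust moderation). Foxo3 (1434831_a_at), a related forkhead factor tied to quiescence, had 9.20, 9.44 and 9.43 in GC B1-8, 9.17, 8.65 and 8.98 in GC V23, and 11.003, 10.82, 10.70 and 10.75 in naive samples. All GC samples lay below all naive samples. It fell by 1.46 ± 0.14 in B1-8 (2.75-fold lower, adjusted p = 0.000114) and fell by 1.89 ± 0.14 in V23 (3.70-fold lower, adjusted p = 2.38e-05). Averaging its 3 probe sets, 1 of which is dim, gave −0.77 in B1-8 (adjusted p = 0.0669).

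Both outputs fell. Sesn1 (1438931_s_at) encodes sestrin 1, a stress-induced protein that restrains mTORC1 and is a target of p53 as well as of FOXO factors. It had 10.39, 10.55 and 11.31 in GC B1-8, 10.12, 10.72 and 10.68 in GC V23, and 12.40, 12.03, 12.27 and 11.93 in naive samples. B1-8 replicate 3 stood nearest to the naive samples but below all of them. The log2 fold change was −1.41 ± 0.25 in B1-8 (2.65-fold lower, adjusted p = 0.00268) and −1.65 ± 0.25 in V23 (3.13-fold lower, adjusted p = 0.000958). Txnip (1415996_at), which binds thioredoxin and lowers glucose uptake, had 11.30, 11.42 and 11.57 in GC B1-8, 11.12, 11.27 and 11.06 in GC V23, and 12.74, 12.87, 12.84 and 12.63 in naive samples. GC and naive samples lay at least 1.06 apart. It fell by 1.34 ± 0.10 in B1-8 (2.53-fold lower, adjusted p = 4.07e-05) and fell by 1.62 ± 0.10 in V23 (3.07-fold lower, adjusted p = 1.3e-05).

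**Figure D2:**
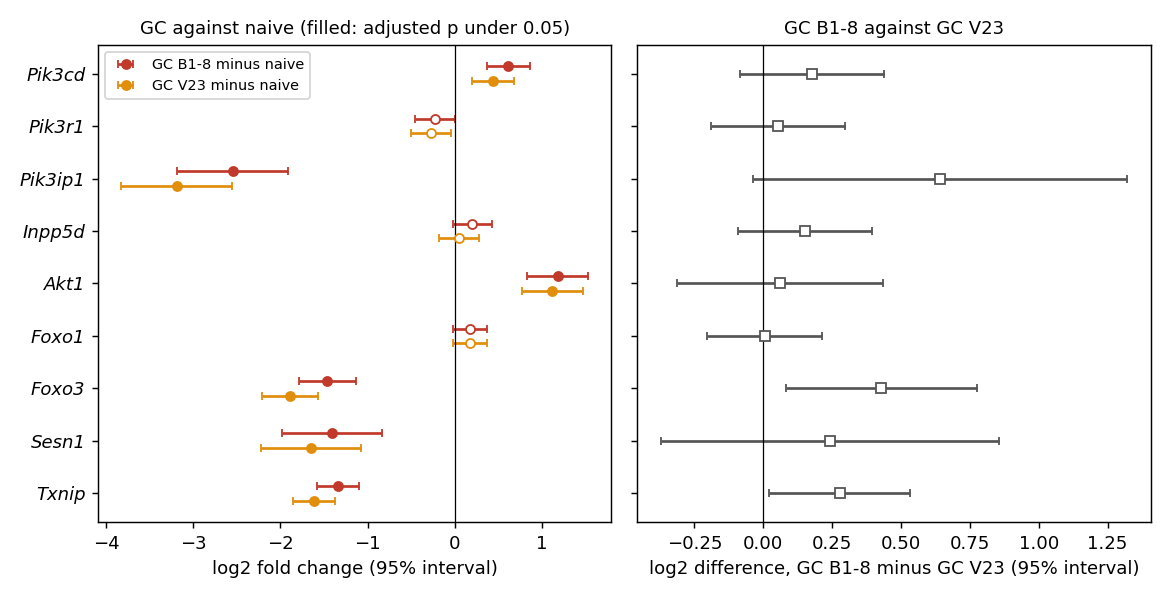
Left, log2 fold change (x axis) of GC B1-8 and GC V23 against naive for each gene with its 95% interval, filled where the limma adjusted p is under 0.05; right, the log2 difference of GC B1-8 minus GC V23 with its 95% interval. Pik3ip1 is farthest from 0 on the left, at −2.54 and −3.19. Points on the right are drawn open whatever their adjusted p, and 0 of the 9 genes passed limma in that comparison.

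The lines, whose receptors differ in affinity for NP, were then compared directly. In B1-8 against V23, 0 of the 9 genes passed limma after adjustment, where 0.0233% of all genes did (4 of 17204), and 2 had an unadjusted p under 0.05, as 7.72% of all genes did. These were Foxo3, higher in B1-8 by 0.43 (95% interval 0.08 to 0.77, limma adjusted p = 0.565), and Txnip, higher by 0.28 (0.02 to 0.53, limma adjusted p = 0.627). In both genes the 3 B1-8 samples lay above the 3 V23 samples, as they did not in the other 7, while 13.7% of all genes showed no overlap between the lines in either direction. The fitted difference was above 0 in all 9 genes, with a median of 0.18 beside 0.0048 over all genes. That holds for the probe sets used: of the other 22 probe sets of these genes 13 were above 0 and 9 below, among them Pik3ip1 on 1439087_a_at at −0.07, Akt1 on 1425711_a_at at −0.16 and Foxo1 on 1416982_at at −0.05. Foxo3 on 1434832_at was at 0.12 and Txnip on 1415997_at at 0.13, both with lines that overlap. For Pik3cd, Pik3r1, Akt1, Foxo1 and Sesn1 its sign turned under at least 1 alternative. Pik3ip1 had the largest difference and the widest interval, 0.64 (−0.04 to 1.32, adjusted p = 0.663). Intervals were narrowest for Foxo1, 0.01 (−0.20 to 0.21), Inpp5d, 0.15 (−0.09 to 0.39), and Pik3r1, 0.05 (−0.19 to 0.30), and that of Akt1 was −0.31 to 0.43 around 0.06.

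The 9 genes have 31 probe sets of their own symbol alone, and all 31 passed the filter on low values. Their agreement was tested in the same model over all 41235 probe sets that passed, where the adjusted p is taken over probe sets. The 4 genes that fell were borne out by their other bright probe sets. Pik3ip1 fell on 1439087_a_at, with log2 fold changes of −3.50 ± 0.29 in B1-8 and −3.43 ± 0.29 in V23, where GC values of 5.79 to 6.78 lie against 9.18 to 10.09 in naive samples. All 3 other Sesn1 probe sets fell in the mean of both GC groups, with log2 fold changes of −1.51 to −1.95, as did the second Txnip probe set at −1.23 ± 0.15. Foxo3 on 1434832_at had nearly identical naive values, 9.66, 9.65, 9.64 and 9.65, against 8.4 to 8.54 in B1-8 and 8.29 to 8.45 in V23, and fell by 1.24 ± 0.08 (adjusted p = 1.36e-05), while its remaining probe set, at a mean of 4.20, showed no call (−0.06 ± 0.62).

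Akt1 rose further on its second probe set, 1425711_a_at, by 1.91 ± 0.19 in B1-8 and 2.07 ± 0.19 in V23, and the other 2, at means of 7.15 and 4.07, gave 0.22 ± 0.30 (adjusted p = 0.615) and 0.84 ± 0.27 (adjusted p = 0.0364) for the mean of both groups. Foxo1 rose on 1 probe set only, 1416982_at, by 0.44 ± 0.10 in B1-8 (adjusted p = 0.0106) and 0.49 ± 0.10 in V23 (adjusted p = 0.00527), where 11.15 to 11.33 in GC samples stand against 10.69 to 10.86 in naive samples. On 1416981_at, of similar brightness, Foxo1 was at 0.26 ± 0.11 (adjusted p = 0.104), so its probe sets share a sign and differ in call. Pik3cd probe sets disagreed: the 4 brightest were all above 0 in the mean of both GC groups, between 0.42 and 0.86, with a call for 1453281_at and 1422991_at, whereas 1458321_at, at a mean of 7.14, fell by 0.78 ± 0.24 (adjusted p = 0.0324). Pik3r1 probe sets pointed both ways, at −0.25, 0.35, −0.46 and −0.12, and none of the 4 passed in that model (0 of 4, adjusted p between 0.0501 and 0.586, limma), the first of them with 0.0717 against 0.0424 among genes. The second Inpp5d probe set was at 0.34 ± 0.13 (adjusted p = 0.0744).

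**Figure D3:**
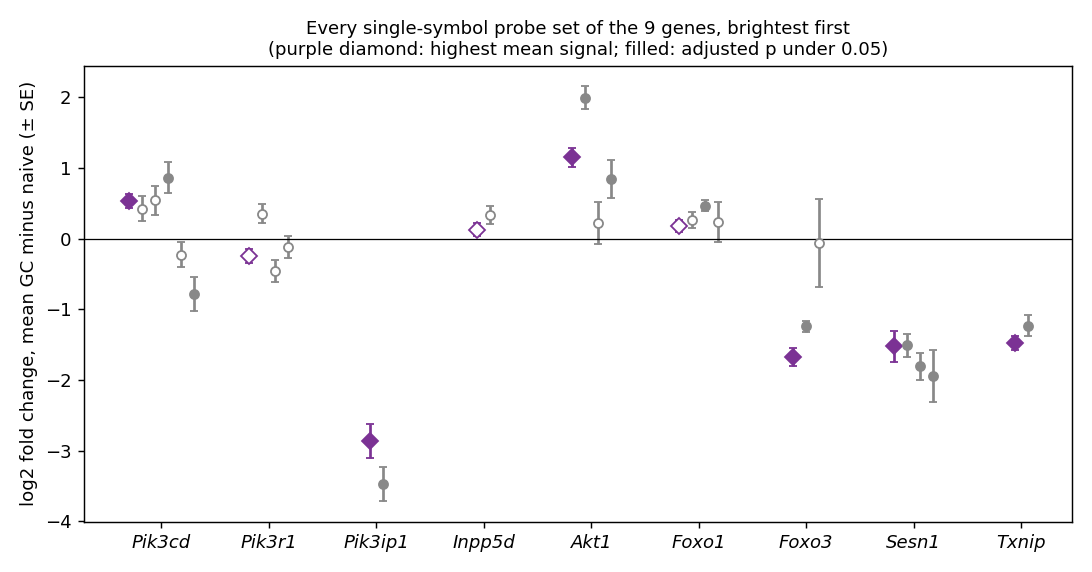
Log2 fold change of the mean of both GC groups minus naive (y axis, ± SE) for all 31 probe sets of the 9 genes (x axis), ordered within a gene by mean signal; diamonds are the probe sets used above, circles the others, and filled points have an adjusted p under 0.05 over all probe sets. The probe sets of Pik3ip1, Sesn1 and Txnip all fell, and those of Pik3cd and Pik3r1 lie on both sides of 0.

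The profiles of the 3 genes with the largest change were set beside all other genes. Likeness was the root mean square difference of log2 values over the 10 arrays, each gene centred on its own mean, among 7822 genes with a mean of at least log2 8. The profiles nearest to Pik3ip1 were those of the phosphatase gene Ptprj (0.266) and of Gbp6 (0.269), those nearest to Foxo3 were Jarid2 (0.0994) and Rbms1 (0.109), and those nearest to Sesn1 were Cyp39a1 (0.176) and Pkib (0.177). This distance rests largely on the size of the GC minus naive fold change, which such genes share. It was −2.73 in Ptprj and −2.98 in Gbp6 beside −2.87 in Pik3ip1, and −1.74 in Jarid2 and −1.77 in Rbms1 beside −1.67 in Foxo3. Shared control of these genes was not tested.

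Other genes of the pathway were counted in 6 lists of 91 genes, of which 82 were tested. For both GC groups together 18 rose and 33 fell relative to naive, where 20.5% of all genes rose and 21% fell. In B1-8 against naive 16 rose and 25 fell (16.4% and 17.3% of all genes), and in V23 against naive 15 rose and 29 fell (18.2% and 19.7%). Without naive replicates 2 and 4 the counts for the mean of both groups were 17 and 21, while the share of all genes that rose was 18.3% and that of genes that fell 16.4% in that smaller fit. Klf2, S1pr1 and Ccnd2 were known to fall on these arrays when the lists were drawn up.

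Of 10 PI3K subunits and adaptors 2 rose and 4 fell. Pik3cg, the p110γ subunit that acts below G protein-coupled receptors, rose by 1.09 ± 0.07 (11.62 in B1-8, 11.80 in V23 and 10.62 in naive samples), and Pik3r5, which encodes its p101 regulatory subunit, fell by 1.31 ± 0.14 (7.46 in B1-8, 7.48 in V23 and 8.77 in naive samples). The adaptor Pik3ap1, which links the B cell receptor to PI3K, rose by 0.30 ± 0.07 (adjusted p = 0.0103), and the regulatory subunit Pik3r3 fell by 0.64 ± 0.17 (adjusted p = 0.0141). Leaving out naive replicates 2 and 4, 2 rose and 1 fell.

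Among 9 AKT-related kinases and AKT phosphatases 3 rose and 2 fell. Phlpp1, a phosphatase that removes an activating phosphate of AKT, fell by 1.12 ± 0.07 (adjusted p = 6.17e-06), with 9.37 to 9.57 in GC samples against 10.54 to 10.69 in naive samples. Pdpk1, the kinase that activates AKT, rose by 0.33 ± 0.07 and Akt2 by 0.41 ± 0.09, while Sgk1, a kinase related to AKT, fell by 0.87 ± 0.15. Of 6 phosphoinositide phosphatases 2 rose and 2 fell in the mean of both GC groups, while in V23 against naive 0 rose and 2 fell. Inpp5e was at −0.94 ± 0.12 and Inpp5k at −0.35 ± 0.08, against Inpp4a at 0.32 ± 0.09 and Inpp5b at 0.31 ± 0.09. In V23 alone Inpp5b was at 0.23 and did not pass (limma adjusted p = 0.13). Inpp4a averaged 9.03 in B1-8 and 8.27 in V23, against 8.33 in naive samples, with a difference from naive of 0.70 in B1-8 and −0.06 in V23, while the difference between the lines, 0.77, did not pass (limma adjusted p = 0.176). In the absence of naive replicates 2 and 4, 1 phosphatase rose and 1 fell.

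Of 21 mTOR complex and nutrient input genes 6 rose and 5 fell. Lamtor1 and Rraga, parts of the lysosomal platform that recruits mTORC1, rose by 1.26 ± 0.17 and 0.58 ± 0.08. Tbc1d7, a subunit of the TSC complex that inhibits mTORC1, rose by 1.25 ± 0.17, and Eif4ebp1, a translation repressor that mTORC1 inactivates, by 0.67 ± 0.11 (1434976_x_at, a probe set that can share sequence with other genes). The others that rose were Depdc5 (0.55 ± 0.09) and Eif4ebp2 (0.31 ± 0.07). The 5 that fell were Akt1s1 (−0.71 ± 0.14), Flcn (−0.64 ± 0.15, also an _x_at probe set), Rictor (−0.58 ± 0.11), Mtor (−0.41 ± 0.11) and Tsc1 (−0.33 ± 0.08). The counts were 6 and 3 without naive replicates 2 and 4.

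Of 25 FOXO factors and FOXO targets 3 rose and 15 fell, with a median of −0.50 beside 0.06 over all genes. Without Klf2, S1pr1 and Ccnd2, and without Foxo4, which is named here after its values were seen, 3 of 21 rose and 11 fell, with a median of −0.30. These 21 were also listed with earlier results of these data known. They still hold Ccr7, a naive follicular B cell marker, which fell by 4.71 ± 0.47. Bcl6, which is also among the GC B cell markers used to check the samples, is in them too and rose. The list mixes genes that FOXO factors are known to induce with genes they are known to repress. Klf2, a quiescence factor and FOXO1 target, fell by 3.79 ± 0.18, the egress receptor S1pr1 fell by 3.05 ± 0.14 and Cdkn1b, the cell cycle inhibitor p27, fell by 2.93 ± 0.10. Ccnd2, a cyclin that FOXO factors are known to repress, also fell by 3.06 ± 0.07. Foxo4 fell by 2.55 ± 0.29, with 5.51 to 7.06 in GC samples against 7.81 to 8.98 in naive samples. The 3 genes that rose were Bcl6, by 1.11 ± 0.12, Cited2, by 0.88 ± 0.10, and Gadd45a, by 0.39 ± 0.10. The counts became 4 and 11 without naive replicates 2 and 4.

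Of 11 relatives and partners of sestrins and TXNIP 2 rose and 5 fell. Sesn3, another sestrin and FOXO target, fell by 0.66 ± 0.08. Mlxip, which encodes MondoA, the glucose-sensing activator of Txnip, fell by 1.07 ± 0.13 (10.01 to 10.52 in GC samples against 11.12 to 11.53 in naive samples). Txn1, the thioredoxin that TXNIP binds, rose by 1.16 ± 0.11, and the mitochondrial thioredoxin Txn2 by 0.72 ± 0.10. Leaving out naive replicates 2 and 4, 2 rose and 3 fell. In B1-8 against V23, 0 of the 82 pathway genes passed limma and 5 had an unadjusted p under 0.05, beside 7.72% of all genes.

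**Figure D4:**
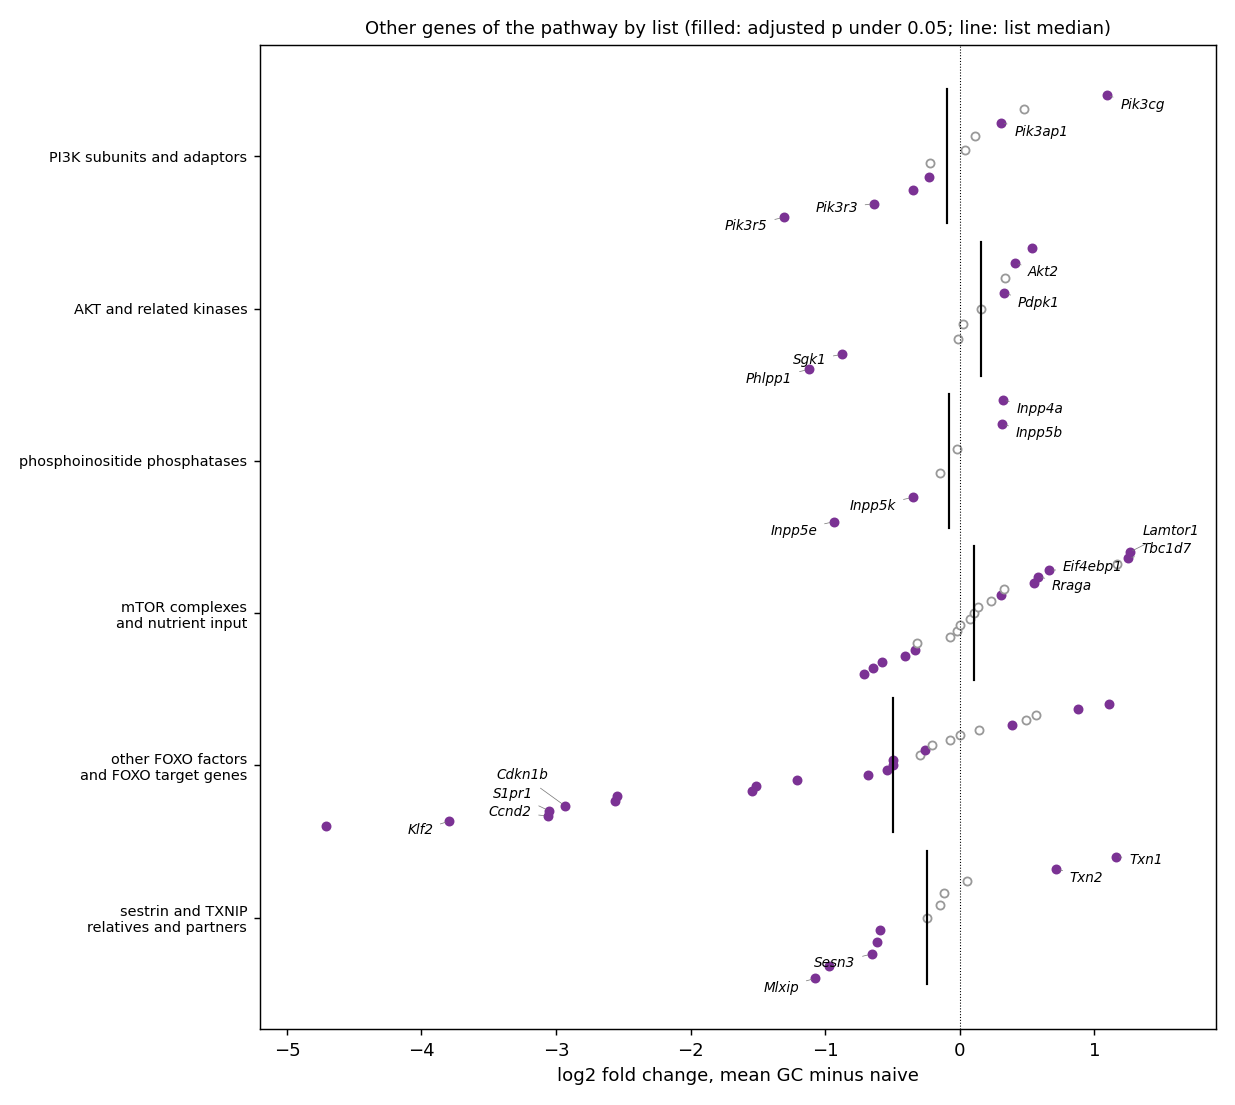
Log2 fold change of the mean of both GC groups minus naive (x axis) for the 82 tested genes of the 6 lists (y axis), filled where the adjusted p is under 0.05, with a line at the list median and names for the 4 genes of each list with the smallest p. FOXO factors and targets have the lowest median, −0.50, and the other medians lie between −0.25 and 0.15. All lists were chosen with earlier results of these data known.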

How the data were processed

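Gene expression was measured on 10 arrays. Values were deposited as log2 probe set signals in a column for each array. GCRMA, without a version, is the tool named per the submitters' processing notes, yet quantiles differ between arrays, and on all of them the unlogged signals have a 2% trimmed mean of 500, the form of scaled MAS5 signals. They were not normalized further. Dim probe sets were noisy, with a median residual SD of 0.889 below log2 6 against 0.118 above log2 10. Arrays give no counts, and their number limits the precision.

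Of 45101 probe sets 34958 carry 1 gene symbol, 932 several and 9211 none, in a platform annotation updated through RefSeq. The brightest single-symbol probe set of each of 18194 symbols was kept, and 17204 genes with log2 above 4 on at least 3 arrays were tested with limma 3.58.1 (R 4.3.3; lmFit, contrasts and eBayes, 7 residual and 1.46 prior degrees of freedom, threshold 0.05). The fitting code was tested on simulated data. Named are all 9 members, up to 4 genes of each pathway list by smallest p, and 2 nearest profiles for 3 members. Foxo4, Ccr7, Depdc5, Eif4ebp2, the FOXO list genes that rose and the mTOR list genes that fell are outside this rule. They were named after their values were seen. The Akt1 sequence is outside the plan as well, which took only members that fell by at least 2-fold in both lines. Members and lists were chosen with earlier results of these data known. Alternatives covered the filter, probe set choice, quantile normalization, median centring, a floor, moderation, array weights, a 2-fold minimum, fitting only the groups compared, a replicate block and leaving out single arrays; leaving out naive replicates 2 and 4 together, and the FOXO list without 4 genes, were added after seeing the data. Protein sequences were not used here. Figures were drawn with matplotlib 3.10.9.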

Additional observations from a re-analysis of the deposited data

Results flagged for a closer look

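Among 43 genes and marker lists checked, 4 had a naive sample far from the other 3 by Dixon's test at the 95% level, and chance alone flags about 1 in 20 groups. The ratio of gap to range was 0.9 for Klf2 (12.11, 12.09, 12.07 and 11.74 in naive replicates 1 to 4), 0.858 for Txn1 (12.46, 12.96, 12.52 and 12.53), 0.843 for Mlxip (11.53, 11.50, 11.47 and 11.12) and 0.882 for the mean of the B cell markers (13.39, 13.39, 13.53 and 13.37). Naive replicate 4 was the low sample for Klf2 and Mlxip, naive replicate 2 the high one for Txn1, and naive replicate 3 the high one for the B cell markers. None of the 9 members had such a sample.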

How the results depend on the processing

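Of 774 recomputed fold changes of the 9 genes under 22 alternatives 736 kept their direction and side of the threshold, 20 kept the direction and lost the call, 6 gained it and 12 turned sign. Changes of filter, floor or moderation, the 2-fold minimum and fitting only the groups compared leave the fold change of these genes as it was. Its sign could not turn there, and the 2-fold minimum ends the calls of Pik3cd and Pik3r1 by rule, so the tally overstates how far direction was tried. Calls of Pik3ip1, Akt1, Sesn1 and Txnip against naive held under all of them. All 12 turns were in uncalled values: in B1-8 against V23 with median centring for Foxo1 (−0.0566), Pik3r1 (−0.00791) and Akt1 (−0.0019), with the mean of probe sets for Pik3cd (−0.0292) and Pik3r1 (−0.0682), and with 1 array left out for Foxo1 (range −0.0305 to 0.0595), Pik3r1 (−0.0115 to 0.11) and Sesn1 (−0.0398 to 0.42); and for Inpp5d in V23 against naive with quantile normalization (−0.0547) and with 1 array left out (−0.0068 to 0.13). Median centring moved the median of all genes in V23 against naive from 0.06 to 0.19. Members called ranged from 4 to 6 in B1-8, 5 to 7 in V23 and 5 to 8 in the mean of both against naive, and stayed at 0 between the lines (limma). The 2-fold minimum left 16, 19 and 18 pathway genes called in these 3 comparisons, against 41, 44 and 51, because smaller changes no longer count; with 1 array left out the counts were 30 to 41, 37 to 44 and 45 to 50. The shares of all genes called under each alternative are not given here, so these counts show only how calls depend on the processing. With the replicate block Pik3r1 lost its call in the mean of both GC groups (−0.30, limma adjusted p = 0.0646), and the block changed no other member's call. Same-numbered arrays did not deviate together (r between −0.02 and 0.07 across genes in 9 pairs, and 3 of 9 arrays were closest to their own number), so the numbers were not taken to pair the samples. Where the cause of a change is not given, the cause was not tested.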
